A study of Astyanax mexicanus with 6 samples.

Results

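Integrins are receptors made of an alpha and a beta subunit that hold a cell to its extracellular matrix, and laminins are trimers of an alpha, a beta and a gamma chain that, with nidogens, form the basement membrane. The alpha subunit largely sets which ligand an integrin binds, whereas the tail of the beta subunit recruits talin, vinculin, paxillin and the integrin-linked kinase on the inner side of the membrane. Fibroblasts are known for collagen-binding integrins and for secreting much of the matrix they sit on. The roles given for single genes are known mainly from mammals.

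The genes were chosen by name from the expression table, as all entries whose symbol begins as an integrin alpha or beta subunit, a laminin chain, a nidogen, or ilk, tln, vcl or pxn. This gave 55 of the 27420 genes listed, 18877 of which had a symbol. They comprised 19 integrin alpha and 11 integrin beta genes, 4 laminin alpha, 5 laminin beta and 3 laminin gamma chain genes, 3 nidogens and 7 adaptor genes. The name rule also took in 3 genes of other proteins (ilkap, itgb1bp1 and tlnrd1), which are in none of these groups but count in the totals over all genes chosen.

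RNA was sequenced from 2 cell lines of the Mexican tetra, Astyanax mexicanus. PEF (Pachón embryonic fibroblast) came from embryos of the blind Pachón cave population and SEF (surface fish embryonic fibroblast) from embryos of the river-dwelling surface population, with 3 libraries per line. Both lines were untreated, and no engineered allele is described for either. They were derived on gelatin-coated wells and grown in the same medium, with long passaging of individual clones. The paper does not state the coating of the plates used for RNA. One line stands for each population, so the p-values below measure the spread between libraries and not between animals or clones, and population, clone and culture history cannot be told apart. In bulk RNA, fewer cells of a type and less RNA per cell cannot be told apart either.

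The libraries held 33381563 to 42506026 reads on genes. PEF 1 stood apart from the other PEF libraries, with a chi-square per degree of freedom over genes of 138 against PEF 2 and 171 against PEF 3, where PEF 2 and PEF 3 differed by 17.7. All 15 genes matched by a list of fibroblast marker names had reads in every library, some of them only a few. Their levels were summed in TPM, which corrects for transcript length and library depth. The sum was 8681 to 14758 TPM in PEF and 7098 to 11501 TPM in SEF, carried by type I collagen genes. Of these 15, 5 were higher in PEF and 6 lower (73.3% in all, against 63.5% of all tested genes). Among the lower were fap (0.0933 TPM in PEF, 112 TPM in SEF) and postna (10 to 11 reads in PEF, 3388 to 7535 reads in SEF). The vimentin gene vim was also lower and had little RNA in either line (1.23 TPM in PEF, 3.32 TPM in SEF). The paper stained both lines for vimentin protein and reports that its expression was stable, which the RNA of vim alone does not measure. Among the higher was postnb (98.8 TPM in PEF, 0.260 TPM in SEF). The 14 listed epithelial markers, led by keratins, summed to 6144 to 7275 TPM in PEF and 2598 to 3547 TPM in SEF, while the defining epithelial gene epcam had at most 3 reads in any library. Of the 8 epithelial markers tested, 4 were higher in PEF and 3 lower (87.5% in all, against 63.5% of all tested genes). The higher ones were krt8 (log2 fold change 1.67), krt18b (1.26), dspa (0.83) and cldnb (2.19). The mean level of krt8 was 3636 TPM in PEF, against 1270 TPM in SEF, while that of cldnb was 0.44 TPM in PEF. The lower ones were cldn7a (-3.80), cldn7b (-3.41) and tp63 (-3.05). These 3 were low in SEF too, with means of 1.39, 0.33 and 0.81 TPM. The 14 listed muscle markers summed to 28.4 to 41.7 TPM in PEF and 367 to 531 TPM in SEF. The part of these other markers in the results below was not tested.

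Whether the cave and surface lines differed in these genes was tested with edgeR's quasi-likelihood test over all 16670 genes with enough reads, and a gene was called at a Benjamini-Hochberg adjusted p under 0.05. Of the 48 integrin, laminin and adhesion genes tested, 35 were called, or 72.9%, against 63.5% of all tested genes. In PEF 12 were higher, or 25.0%, where 30.4% of all tested genes were, and 23 were lower, or 47.9%, where 33.1% were. With an absolute log2 fold change above 1 in addition, 28 were called (58.3%, against 40.5% of all tested genes). For 36 of the 48, every library of one line lay above every library of the other in read counts scaled for library depth (75.0%, against 70.8% of all tested genes). The median log2 fold change was -0.42 over these genes and -0.02 over all tested genes. Without PEF 1, 34 were called, 11 higher and 23 lower. Requiring 10 reads in every library left 36 of these genes in the test, of which 10 were higher and 13 lower, with a median of 0.02. Of all 13388 genes that passed this filter, 3952 were higher and 3748 lower, with a median of 0.01. In the main fit without ilkap, itgb1bp1 and tlnrd1, 34 of 45 genes were called (75.6%), 11 higher and 23 lower, with a median of -0.54. Of the 23 lower genes, 11 encoded integrin alpha subunits, 4 beta subunits, 5 laminin chains, 2 nidogens and 1 an adaptor.

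**Figure D1:**
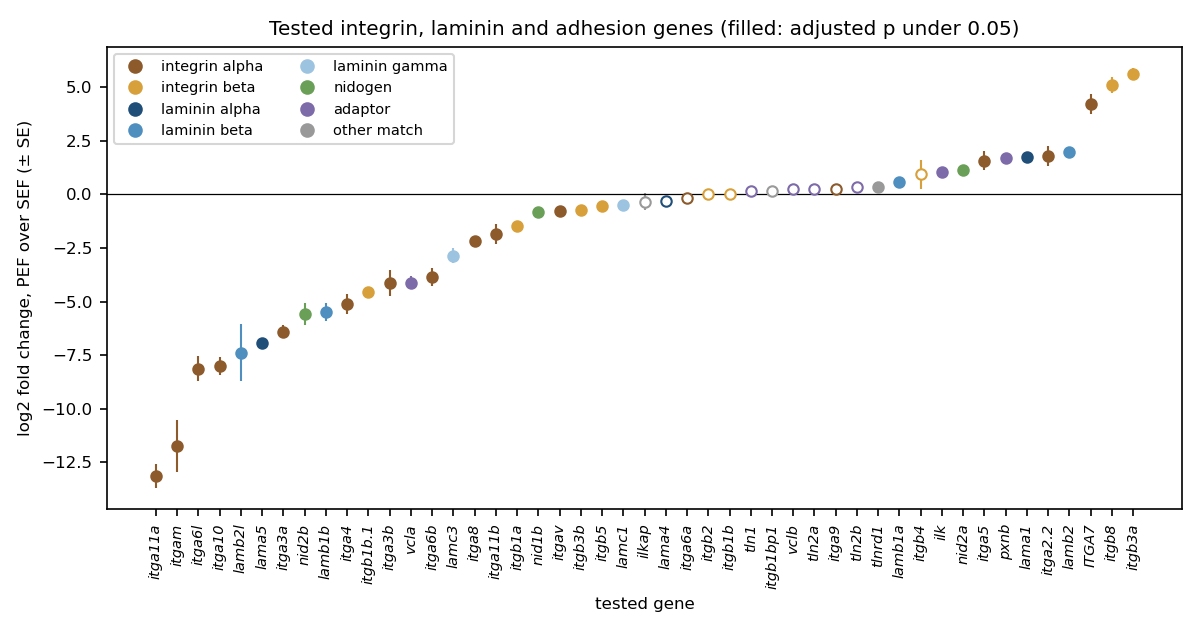
Log2 fold change of PEF over SEF (y axis, with the SE of the edgeR fit) for 47 of the 48 tested genes, ordered by size along the x axis and coloured by role; filled points have an adjusted p under 0.05. Integrin alpha genes fill most of the lower end, from itga11a at -13.13, and itgb3a has the highest value at 5.62; the fitted values of itgam, itga6l, lamb2l and nid2b rest on PEF libraries with no more than 3 reads.

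Integrin alpha subunit genes were lower in PEF as a class. Of 16 tested, 11 fell, where 33.1% of all tested genes did, 3 rose and 2 did not pass. The median log2 fold change was -3.02, but -1.38 with 10 reads required in every library and -0.76 to -2.16 under limma. Summed over all 19 genes, the alpha level was 144, 118 and 90.4 TPM in PEF, against 1131, 1039 and 969 TPM in SEF, a PEF to SEF ratio of 0.112. The beta genes together changed far less, with 710, 717 and 690.1 TPM in PEF, against 996, 910 and 897 TPM in SEF, a ratio of 0.755. Summed beta TPM was thus 4.92, 6.09 and 7.64 times summed alpha TPM in the PEF libraries, against 0.881, 0.876 and 0.925 times in the SEF libraries. In each of these 3 quantities the PEF libraries stayed clear of the SEF libraries. An exact two-sided permutation test gave p = 0.1 for each of the 2 sums, the smallest value that 3 libraries against 3 allow. The sums cover only genes with a matching symbol, and ratios of RNA need not be those of protein.

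**Figure D2:**
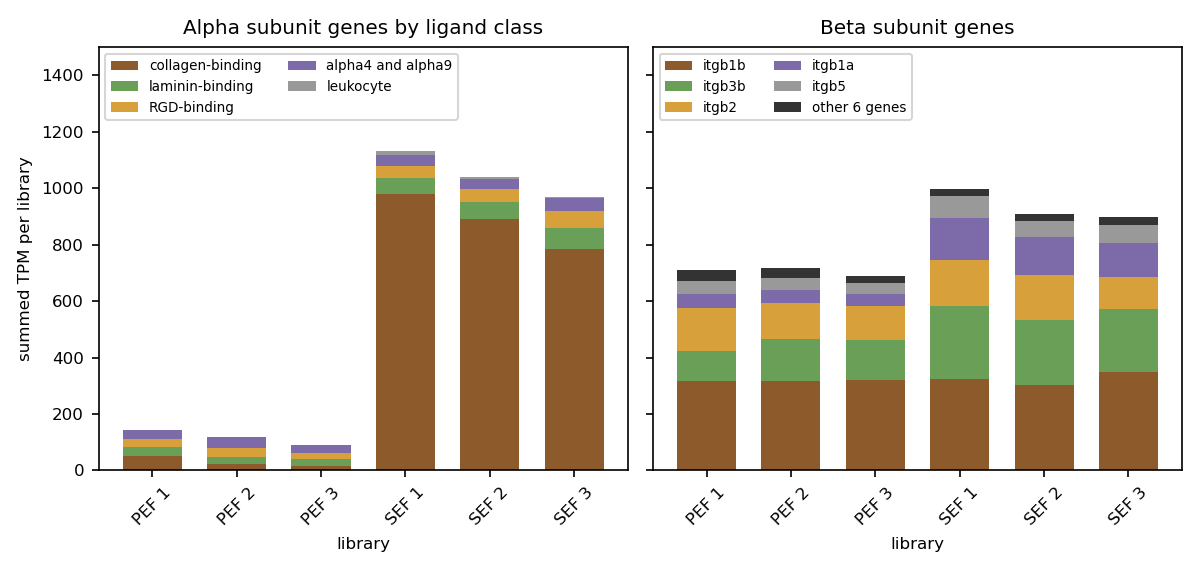
Summed TPM per library (y axis) of the integrin alpha genes by ligand class (left) and of the integrin beta genes (right), with the PEF libraries left of the SEF libraries on the x axis. Collagen-binding genes make up most of each SEF alpha bar (785 to 979 TPM) and 16.8 to 51.0 TPM of each PEF bar, while itgb1b is nearly level across the 6 libraries.

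Most of that difference lay in the collagen-binding subunits, which in mammals pair with beta1 and let fibroblasts grip fibrillar collagen. The 5 genes of this class summed to 51.0, 23.6 and 16.8 TPM in PEF, against 979, 890 and 785 TPM in SEF, 29.1-fold lower in PEF by their means. They took 24.6% ± 9.33 of summed alpha TPM in PEF and 84.4% ± 2.98 in SEF (SD, n = 3 each). Of the 4 tested genes of the class, 3 fell and 1 rose, where 63.5% of all tested genes were called in either direction.

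The gene itga10 (ENSAMXG00000008293) encodes the alpha10 subunit, best known from cartilage and other mesenchyme. Its level was 0.84, 1.36 and 1.93 TPM in PEF, against 473, 422 and 333 TPM in SEF, from 24 to 78 reads in PEF and 12913 to 15865 reads in SEF. It fell by 8.01 on the log2 scale (SE 0.42, adjusted p = 9.04e-06, edgeR). It made up 1.29% ± 0.786 of summed alpha TPM in PEF and 38.9% ± 4.03 in SEF (SD, n = 3 each), where it was the highest alpha gene. The share differed by -37.6 percentage points (exact two-sided permutation p = 0.1, 0.12 after Benjamini-Hochberg adjustment over the leading genes of 6 chain classes), and by -16.9 points on TMM-scaled read counts, which are not corrected for gene length.

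The largest fitted fall of all these genes was that of itga11a (ENSAMXG00000006104), one of 2 copies of the gene for alpha11, a fibrillar collagen receptor of fibroblasts. Its level was 0.02, 0.01 and 0.07 TPM in PEF, against 410, 369 and 338 TPM in SEF. No PEF library had more than 12 reads, and no SEF library fewer than 44395. The log2 fold change was -13.13 (SE 0.56, adjusted p = 4.01e-06, edgeR), or -14.77 without PEF 3. Its copy itga11b had 48.7, 19.2 and 12.4 TPM in PEF, against 95.7, 98.1 and 113 TPM in SEF. The copy also fell in PEF, by 1.85 on the log2 scale (SE 0.44, adjusted p = 0.00852), or by 2.53 without PEF 1, its highest PEF library. The a copy therefore held 0.217% ± 0.296 of the TPM of the pair in PEF and 78.3% ± 3.13 in SEF (SD, n = 3 each).

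The remaining collagen-binding genes were low in both lines. For itga2.2, an alpha2 gene, the level was 1.43, 2.95 and 2.31 TPM in PEF, against 0.34, 0.80 and 1.01 TPM in SEF, with no overlap, and it rose by 1.77 on the log2 scale (SE 0.47, adjusted p = 0.0136, edgeR). The alpha1 gene itga1 had at most 1 read in PEF and 9 reads in SEF and was not tested.

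**Figure D3:**
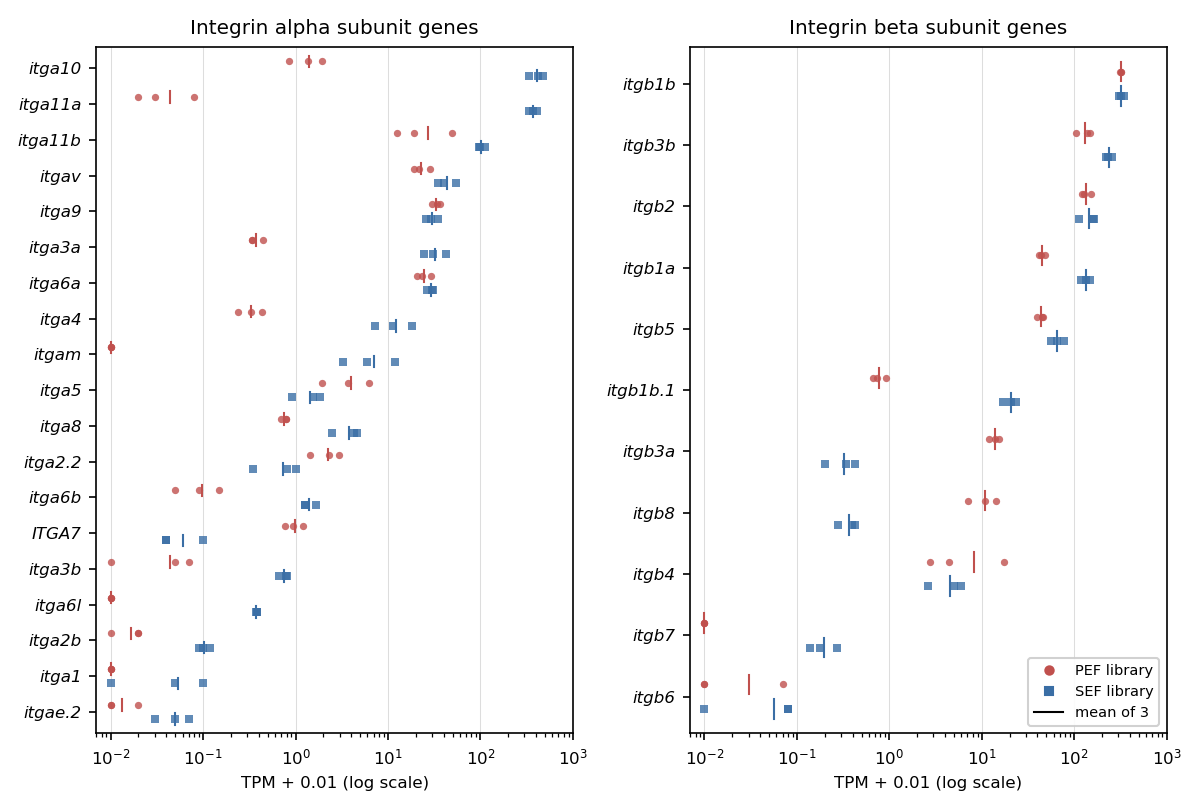
TPM + 0.01 (x axis, log scale) of the 19 integrin alpha genes (left) and the 11 beta genes (right), 1 point per library, circles for PEF and squares for SEF, with a bar at the mean of 3. The points for itga10, itga11a and itga3a lie far apart between the lines, while those for itga9, itga6a, itgb1b and itgb2 overlap.

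Subunits of the laminin-binding class, which carry cells on basement membranes, summed to 30.7, 24.6 and 22.1 TPM in PEF, against 58.1, 59.8 and 74.7 TPM in SEF. Of its 6 genes, all tested, 4 fell and 1 rose (83.3% called, against 63.5% of all tested genes). The alpha3 gene itga3a had 0.33, 0.43 and 0.33 TPM in PEF, against 24.6, 30.9 and 42.5 TPM in SEF, and fell by 6.41 on the log2 scale (SE 0.30, adjusted p = 5.76e-06). The alpha6 gene itga6a carried nearly all laminin-binding TPM of PEF, with 29.4, 23.2 and 20.4 TPM, against 30.8, 26.4 and 29.7 TPM in SEF. Its log2 fold change of -0.18 (SE 0.14) did not pass the test (adjusted p = 0.311), and the libraries of the lines overlapped.

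Its copy itga6b was low everywhere, with 0.14, 0.04 and 0.08 TPM in PEF, against 1.64, 1.26 and 1.26 TPM in SEF. It fell by 3.85 on the log2 scale (SE 0.42, adjusted p = 0.000215, edgeR), or by 4.46 without PEF 1. Of the others, itga3b fell by 4.15 on the log2 scale (5.04 without PEF 2) at under 1 TPM in each library, and itga6l, with no read in PEF and 32 to 38 reads per library in SEF, was at least 11.6-fold lower in PEF against a floor of 3 reads per library. The gene that rose was ITGA7, encoding alpha7, a laminin receptor best known from muscle. It had 0.76, 0.94 and 1.20 TPM in PEF, against 0.03, 0.09 and 0.03 TPM in SEF (log2 fold change 4.19, SE 0.47, adjusted p = 0.000235). Without SEF 2 its value was 5.08. Of 8 tested muscle markers 6 were lower in PEF, where 33.1% of all tested genes were, the other way from ITGA7.

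The subunits that recognise the RGD motif of fibronectin and vitronectin shifted less in sum, to 28.5, 33.1 and 21.5 TPM in PEF, against 40.1, 46.6 and 59.1 TPM in SEF. Most of this was itgav, encoding alphaV, with 21.4, 28.7 and 18.9 TPM in PEF, against 34.5, 40.7 and 54.7 TPM in SEF. It fell by 0.79 on the log2 scale (SE 0.23, adjusted p = 0.0211, edgeR), a call lost without PEF 1 (adjusted p = 0.0521) or without PEF 3 (0.0674). The alpha8 gene itga8, typical of smooth muscle and mesangium, had 0.78, 0.78 and 0.68 TPM in PEF, against 4.66, 4.30 and 2.47 TPM in SEF, and fell by 2.19 (SE 0.25, adjusted p = 0.000256). The muscle markers moved with it, 6 of 8 tested being lower in PEF with myh11a at -4.94, and their part in its level was not tested. The gene itga5 encodes alpha5, the alpha subunit of the classical fibronectin receptor, and rose with 6.27, 3.65 and 1.92 TPM in PEF, against 0.91, 1.53 and 1.84 TPM in SEF. Its lowest PEF library was just above its highest SEF library, and the call (log2 fold change 1.55, SE 0.44, adjusted p = 0.0177) was lost without SEF 1 (0.0576) or without SEF 2 (0.0532).

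In the class of alpha4 and alpha9, receptors for fibronectin variants, VCAM1 and tenascin, the pair of genes parted. The level of itga4 was 0.23, 0.32 and 0.42 TPM in PEF, against 7.22, 11.2 and 18.2 TPM in SEF, and it fell by 5.12 on the log2 scale (SE 0.45, adjusted p = 7.72e-05, edgeR). The level of itga9 was 33.7, 36.1 and 29.6 TPM in PEF, against 34.8, 25.7 and 29.1 TPM in SEF, and its log2 fold change of 0.26 did not pass (SE 0.15, adjusted p = 0.164). In PEF itga9 was the highest alpha gene by mean TPM, at 33.2 ± 3.3, followed by itga11b at 26.8 ± 19, itga6a at 24.4 ± 4.6 and itgav at 23.0 ± 5.1 (SD, n = 3 each). Each of these overlapped the next in the order between libraries. The order in SEF was itga10, itga11a, itga11b and then itgav, where itga10 and itga11a overlapped and the next steps did not.

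The leukocyte subunit gene itgam encodes alphaM, a partner of beta2 on myeloid cells. It had no read in any PEF library, against 11.9, 5.91 and 3.23 TPM and 198 to 649 reads in SEF, and was at least 140.5-fold lower in PEF against a floor of 3 reads per library, or at least 90.8-fold without SEF 1. The 12 blood markers summed to 2.06 to 3.97 TPM in PEF, against 23.6, 45.5 and 120 TPM in SEF 1, 2 and 3, and almost all of the SEF sum was the macrophage gene MPEG1 (0.853 TPM in PEF and 61.2 TPM in SEF by the means). Of the 3 blood markers tested, MPEG1 (log2 fold change -6.14) and lcp1 (-3.58) were lower in PEF and spi1a (1.42) was higher, with a mean of 1.45 TPM in PEF, against 0.597 TPM in SEF. From SEF 1 to SEF 3 itgam fell while the blood sum, mostly MPEG1, rose. The TPM of the pan-leukocyte gene PTPRC fell with itgam, at 0.41, 0.34 and 0.15 in SEF 1, 2 and 3. Those of the tested genes lcp1 (0.37, 0.42 and 0.36) and spi1a (0.41, 0.69 and 0.69) did not fall in step with it. PTPRC had at most 9 reads per library in PEF and 20 reads in SEF and was not tested. The part of blood-type cells in the level of itgam was not tested.

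Integrin beta genes went both ways. Of 9 tested, 2 rose, 4 fell and 3 did not pass, with a median log2 fold change of -0.01. The share called was 66.7%, close to the 63.5% of all tested genes. Beta1, the partner of all collagen-binding and most laminin-binding alpha subunits, came from 3 listed genes. The main one, itgb1b (ENSAMXG00000035720), had 317, 317 and 322 TPM in PEF, against 323, 302 and 350 TPM in SEF, with a log2 fold change of 0.03 (SE 0.12, adjusted p = 0.847, edgeR). Its direction was not stable, turning to -0.01 under DESeq2. As a share, itgb1b made up 45.2% ± 1.29 of summed beta TPM in PEF and 34.8% ± 3.62 in SEF (SD, n = 3 each, exact two-sided permutation p = 0.1).

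The copy itgb1a had 48.5, 43.4 and 41.5 TPM in PEF, against 149, 133 and 119 TPM in SEF, and fell by 1.49 on the log2 scale (SE 0.11, adjusted p = 3.95e-05). The third beta1 gene, itgb1b.1, had 0.73, 0.65 and 0.90 TPM in PEF, against 17.1, 20.9 and 23.7 TPM in SEF, and fell by 4.58 (SE 0.20, adjusted p = 4.59e-06). In the pair of itgb1a and itgb1b, the a copy held 12.2% ± 0.949 of the TPM in PEF and 29.2% ± 3.36 in SEF (SD, n = 3 each). Reads from near-identical stretches of such copies could be split or dropped by the counting, so the shares within a pair are uncertain.

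The partners of alphaV moved in both directions. The gene itgb3a, 1 of 2 copies for beta3, rose with 14.0, 15.3 and 12.0 TPM in PEF, against 0.33, 0.42 and 0.19 TPM in SEF, by 5.62 on the log2 scale (SE 0.26, adjusted p = 5.61e-06, edgeR). The more abundant copy itgb3b fell, with 106, 149.6 and 139 TPM in PEF, against 259.6, 233 and 223 TPM in SEF (log2 fold change -0.75, SE 0.17, adjusted p = 0.0063). The a copy held 9.66% ± 1.91 of the TPM of the pair in PEF and 0.131% ± 0.0475 in SEF (SD, n = 3 each).

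The gene itgb8 encodes beta8, whose pairing with alphaV is known for activating latent TGF-beta. Its level was 7.06, 14.2 and 10.9 TPM in PEF, against 0.38, 0.41 and 0.27 TPM in SEF, a rise of 5.08 on the log2 scale (SE 0.36, adjusted p = 3.01e-05). The vitronectin receptor subunit gene itgb5 had 45.8, 44.6 and 39.1 TPM in PEF, against 77.4, 55.5 and 64.6 TPM in SEF. It fell by 0.54 (SE 0.15, adjusted p = 0.0157), a call lost without PEF 3 (adjusted p = 0.0596). Neither itgb8, itgb3a nor itgb5 had overlapping lines.

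Beta2, the leukocyte subunit, was abundant in both lines, while itgam, the gene of a partner, had no reads in PEF. No gene was listed under the names itgal, itgax or itgad, and genes without a symbol could not be found by name. The level of itgb2 was 154, 128 and 122 TPM in PEF, against 164, 159.6 and 114 TPM in SEF, with overlap between the lines and a log2 fold change of -0.01 (SE 0.15, adjusted p = 0.949, edgeR). That direction turned when the filter on low counts was dropped (0.01). The beta4 gene itgb4, the hemidesmosome partner of alpha6, rested on 1 library. It had 17.6 TPM in PEF 1, 4.36 in PEF 2 and 2.76 in PEF 3, against 5.98, 4.94 and 2.64 TPM in SEF. Its log2 fold change of 0.92 (SE 0.66, adjusted p = 0.254) became -0.20 without PEF 1. The genes itgb6 and itgb7 had under 0.3 TPM in each library and were not tested.

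Laminin chains did not move as a block. Summed alpha chain TPM was 91.2, 99.2 and 81.9 in PEF, against 124, 101 and 102 in SEF, beta chain TPM 348, 314 and 303 in PEF, against 243, 213 and 247 in SEF, and gamma chain TPM 10.5, 10.3 and 9.35 in PEF, against 20.3, 20.1 and 16.8 in SEF. The lines overlapped in none of the 3, and each had an exact two-sided permutation p of 0.1. Summed beta chain TPM was 30.4 to 33.3 times gamma chain TPM in PEF and 10.6 to 14.7 times in SEF. These sums too cover only genes with a matching symbol, and RNA ratios need not be those of the protein chains.

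**Figure D4:**
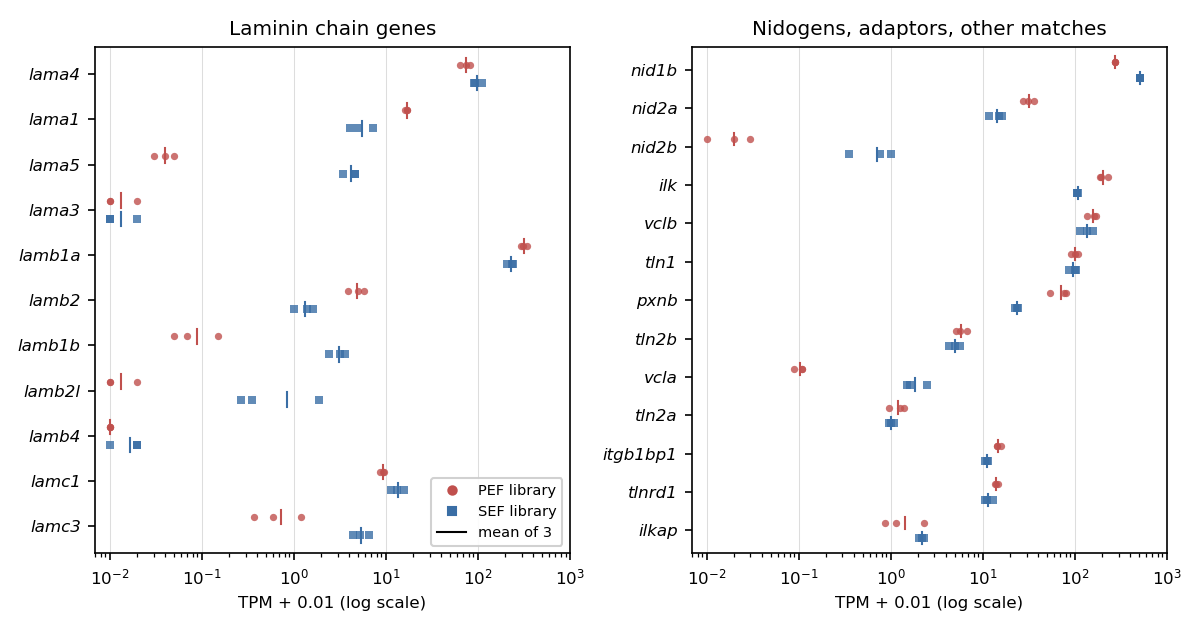
TPM + 0.01 (x axis, log scale) of 11 laminin chain genes (left) and of the nidogens, the adaptors and the 3 other matches of the name rule (right), 1 point per library, circles for PEF and squares for SEF, with a bar at the mean of 3. In both lines lama4, lamb1a and lamc1 are the highest chains of their class, and lama5, lamb1b, nid2b and vcla lie well to the left in PEF.

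Among the 4 listed alpha chain genes, lama4 led in both lines, a chain of vascular and mesenchymal basement membranes. No gene was listed under the name lama2. The level of lama4 was 74.8, 82.0 and 64.8 TPM in PEF, against 112, 91.6 and 94.1 TPM in SEF. The lines did not overlap in TPM but did in TMM-scaled read counts. The log2 fold change of lama4, -0.31 (SE 0.14), did not pass edgeR's test (adjusted p = 0.0919). Under the 3 limma fits on TPM it was called lower, at -0.42, -0.43 and -0.42 (adjusted p = 0.0215, 0.0214 and 0.0283). The chain of early embryonic basement membranes, lama1, rose with 16.4, 17.1 and 17.0 TPM in PEF, against 7.32, 5.05 and 4.05 TPM in SEF (log2 fold change 1.74, SE 0.21, adjusted p = 0.000302). The chain of mature epithelial and vascular basement membranes, lama5, had 0.03, 0.04 and 0.02 TPM in PEF, against 4.61, 4.66 and 3.39 TPM in SEF. It fell by 6.95 on the log2 scale (SE 0.22, adjusted p = 1.6e-06). Neither line had more than 3 reads of lama3 in any library. The share of lama4 in summed alpha chain TPM was accordingly 81.3% in PEF and 91.1% in SEF.

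All 4 tested beta chain genes were called, where 63.5% of all tested genes were, and they were divided evenly by direction. The main chain lamb1a (ENSAMXG00000000835), part of most laminins, had 344, 309 and 297 TPM in PEF, against 238, 209.5 and 241 TPM in SEF, and rose by 0.57 on the log2 scale (SE 0.12, adjusted p = 0.00474, edgeR). Also higher was lamb2, a chain of synaptic and kidney basement membranes, with 3.93, 4.95 and 5.78 TPM in PEF, against 1.60, 0.99 and 1.39 TPM in SEF (log2 fold change 1.99, SE 0.24, adjusted p = 0.000308). The second copy lamb1b fell, with 0.14, 0.06 and 0.04 TPM in PEF, against 3.61, 2.41 and 3.16 TPM in SEF (log2 fold change -5.47, SE 0.42, adjusted p = 4.06e-05), or -6.17 without PEF 1. The gene lamb2l, with 36 to 314 reads per library in SEF and at most 1 in PEF, was at least 43.7-fold lower in PEF, or at least 14.9-fold without SEF 3, which held the 314 reads. In the pair of lamb1a and lamb1b the a copy held nearly all TPM of either line, 99.98% in PEF and 98.7% in SEF.

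No gamma chain gene rose. The chain gamma1, shared by most laminins, comes from lamc1, which had 9.26, 9.67 and 8.76 TPM in PEF, against 15.9, 13.3 and 11.4 TPM in SEF. It fell by 0.49 on the log2 scale (SE 0.14, adjusted p = 0.0162, edgeR), a call lost without PEF 3 (adjusted p = 0.0596). The gamma3 gene lamc3 fell by 2.86 (SE 0.37, adjusted p = 0.000456), with 1.20, 0.58 and 0.36 TPM in PEF, against 4.39, 6.58 and 5.26 TPM in SEF. In shares, lamc1 made up 92.0% of summed gamma chain TPM in PEF and 70.6% in SEF, a difference of 21.4 percentage points that was 13.7 on TMM-scaled read counts.

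Nidogens link laminin to type IV collagen, and all 3 genes were called, where 63.5% of all tested genes were. The most abundant, nid1b (ENSAMXG00000021348), had 274, 278 and 275 TPM in PEF, against 516, 511 and 518 TPM in SEF and fell by 0.82 on the log2 scale (SE 0.10, adjusted p = 0.000387, edgeR). In contrast nid2a rose, with 36.5, 31.3 and 27.4 TPM in PEF, against 16.2, 11.7 and 15.2 TPM in SEF (log2 fold change 1.15, SE 0.16, adjusted p = 0.000643). Its copy nid2b, with at most 2 reads per library in PEF and 50 to 103 in SEF, was at least 28.6-fold lower in PEF. Summed over the 3 genes, nidogen TPM was 307 ± 3.91 in PEF and 530.3 ± 5.81 in SEF (SD, n = 3 each).

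On the inner side of the membrane, the abundant ones among the 7 adaptor genes chosen by name either rose in PEF or did not pass the test. Of the 7 adaptor genes, 2 rose, 1 fell and 4 did not pass (42.9% called, against 63.5% of all tested genes). The integrin-linked kinase gene ilk, whose product scaffolds beta subunit tails to actin, had 232, 194 and 189.7 TPM in PEF, against 107, 106 and 110.1 TPM in SEF, and rose by 1.02 on the log2 scale (SE 0.10, adjusted p = 0.000136, edgeR). The paxillin gene pxnb, for a focal adhesion scaffold, had 54.1, 80.9 and 76.3 TPM in PEF, against 22.3, 23.9 and 24.2 TPM in SEF, and rose by 1.67 (SE 0.18, adjusted p = 0.000216). The lines did not overlap for either gene.

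Talin, which switches integrins to their active form, came mainly from tln1, with 101, 109 and 92.1 TPM in PEF, against 88.0, 100.2 and 104 TPM in SEF (log2 fold change 0.14, SE 0.12, adjusted p = 0.343). Vinculin, which binds stretched talin, came mainly from vclb, with 138, 171 and 163 TPM in PEF, against 115, 138 and 160.2 TPM in SEF (log2 fold change 0.25, SE 0.18, adjusted p = 0.248). Both overlapped between the lines. The second vinculin copy vcla fell, with 0.08, 0.10 and 0.10 TPM in PEF, against 1.62, 2.45 and 1.48 TPM in SEF (log2 fold change -4.12, SE 0.29, adjusted p = 3.05e-05), and held 0.0592% of the TPM of its pair in PEF and 1.35% in SEF. The talin copies tln2a and tln2b did not pass (adjusted p = 0.245 and 0.0797). Of the 3 other matches of the name rule, tlnrd1 rose by 0.34 on the log2 scale (SE 0.12, adjusted p = 0.038), a call lost in 13 of 15 alternatives (adjusted p from 0.0406 to 1 over all 15), among them DESeq2 (0.0563) and 5 of the 6 fits that left out a library. The genes itgb1bp1 and ilkap did not pass.

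Genes that act beside the members were read from 4 lists. Of 50 further focal adhesion adaptor and kinase genes, 45 were tested, of which 7 rose and 19 fell, 57.8% in all, against 63.5% of all tested genes, with a median log2 fold change of -0.21. Among genes averaging 100 reads or more in either line, the largest rises were those of bcar1 (1.45), a scaffold phosphorylated at focal adhesions, vaspb (1.20), an actin elongation factor, and fermt2 (0.76), a kindlin that activates integrins with talin. The largest falls were those of kank1b (-6.43), fynb (-4.34), a Src family kinase, and fermt3b (-4.16), the kindlin of blood cells in mammals. Kindlin thus changed in opposite directions by gene. The mean level of fermt2 was 103 TPM in PEF, against 68.3 TPM in SEF, and that of fermt3b 1.47 TPM in PEF, against 31.4 TPM in SEF. Abundant genes of this list also went both ways. The gene actn4 fell (log2 fold change -1.36), with a mean of 292 TPM in PEF, against 801 TPM in SEF. So did tes (-0.89) and parvaa (-1.34), while enah rose (0.42), with 178 TPM in PEF, against 141 TPM in SEF.

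Of 22 other basement membrane genes, 19 were tested, with 9 higher and 7 lower (84.2%, against 63.5% of all tested genes) and a median of 0.53. Summed over the 22 genes, the level was 7032 to 12622.5 TPM in PEF and 1054 to 1377 TPM in SEF. Most of the PEF sum lay in genes not named here. The type XVIII collagen gene col18a1a rose by 11.99 on the log2 scale, to 391 TPM in PEF, against 0.133 TPM in SEF, followed by col4a5 (9.40) and frem1a (7.42). Among the falls, col4a3 (-4.44), pxdn (-1.71), which crosslinks collagen IV, and col4a2 (-1.69) were the largest. The perlecan gene hspg2 did not pass (25.9 TPM in PEF, 31.0 TPM in SEF).

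Of 22 other laminin receptor, tetraspanin and hemidesmosome genes, 21 were tested, with 9 higher and 10 lower (90.5%, against 63.5% of all tested genes) and a median of -0.19. The tetraspanin cd82a (3.53), the laminin alpha5 receptor bcam (2.87, or 3.47 without SEF 3) and cd9a (1.48) rose most. The tetraspanin cd81b was at least 738-fold lower in PEF, and cd151 (-2.14), which binds laminin-binding integrins, and cd9b (-1.67) followed. The mean level of cd81b in SEF was 41.9 TPM. Its copy cd81a was far more abundant, with 678 TPM in PEF and 613 TPM in SEF, and rose by 0.32 on the log2 scale (adjusted p = 0.0436, edgeR). The dystroglycan gene dag1, a laminin receptor outside the integrin family, rose by 0.83 (SE 0.11, adjusted p = 0.00044, edgeR).

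Of 31 genes for integrin ligands other than laminins and collagens, 27 were tested, with 8 higher and 11 lower (70.4%, against 63.5% of all tested genes) and a median of -0.31. The matricellular genes thbs4b (4.63) and ccn1 (4.36) and the elastic fibre gene emilin1b (2.90) rose most, ccn1 by 2.95 without PEF 1, and fbln1 (-11.73), fbln5 (-10.87) and the osteopontin gene spp1 (-10.83) fell most. Fibronectin, the main ligand of alpha5 and alphaV integrins, came from fn1a, with 433 TPM in PEF and 1026 TPM in SEF, and fn1b, with 60.1 TPM in PEF and 192 TPM in SEF, and both fell (log2 fold changes -1.18 and -1.58). The call of fn1a was lost without PEF 2 (adjusted p = 0.0877, edgeR), without PEF 3 (0.0791) or without SEF 3 (0.0596).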

How the data were processed

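Polyadenylated RNA was sequenced with the TruSeq Stranded mRNA LT kit on a NextSeq 500. Per the submitters' processing notes, reads were processed with STAR 2.7.3a and RSEM. The authors deposited raw counts per gene from STAR and TPM per gene from RSEM. Genome build, annotation and strand setting are not given in the sources used here for these libraries. The 4 STAR rows for reads on no gene (38.8 to 41.1% of reads) were left out.

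All 6 libraries were fitted in edgeR 4.0.16 (R 4.3.3) with TMM scaling, filterByExpr, and line as the one term, since the methods state no test for these libraries. The test was checked only on simulated counts in which a small part of the genes changed. In these data 63.5% of tested genes were called, a share that the check does not cover. Alternatives were DESeq2 1.42.0, limma 3.58.1 on log2(TPM + 1) or log2(TPM + 0.1), upper-quartile scaling, other filters, a replicate block, each library left out in turn, and edgeR's test for changes beyond 1 on the log2 scale. Sums and shares used TPM, with an exact permutation test in SciPy 1.17.1.

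Levels per library were given for genes with a mean of at least 20 TPM in either line, or called with an absolute log2 fold change of at least 2 and a mean of at least 1 TPM in the higher line, 31 in all. A few others were chosen after their values were seen, to complete a role. From the 4 gene lists, the 3 largest rises and falls with a mean of at least 100 reads were named, and some others after their values were seen. Members, lists and markers were chosen with earlier results of these data known. Of the 55 genes, 50 matched a RefSeq symbol (AstMex3_surface), which served only to find neighbouring genes. A line's floor was 3 reads per library. Replicate numbers were not used to pair the libraries in the main fit. Values of 1 of the genes are not reported here, though it counts in the totals.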

Additional observations from a re-analysis of the deposited data

How the results depend on the processing

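The 48 tested genes gave 696 values over the alternatives, of which 642 kept direction and side of the threshold, 33 lost the call, 7 gained it and 14 turned. The calls gained were those of lama4 and itgb1bp1 under the limma fits and of tln2b without SEF 3. None of the 35 called genes turned, 22 kept the call in every alternative that tested them, and 5 lost it with a library left out. These alternatives include the test for changes beyond 1 on the log2 scale, which asks a stricter question than the main test. The genes ilk, itga11b, itga2.2, itgb3b, lamb1a, nid1b and nid2a lost the call in that test only. The turns were those of itgb1b, at -0.014 under DESeq2, -0.036 with 10 reads in every library, -0.024, -0.025 and -0.024 under the 3 limma fits and -0.048 to 0.091 with a library left out; of itgb2, at 0.0086 with no filter, 0.00047 with the replicate block and -0.16 to 0.072 with a library left out; of itgb4, at -0.20 without PEF 1 (up to 1.34 without PEF 3); and of ilkap, at 0.042 without SEF 1 (down to -0.53 without SEF 2). Against a log2 fold change of 1, 5103 genes were called (1994 higher, 3109 lower), 23 of them from the 48 (6 higher). With 10 reads in every library, 23 of 36 were called (13 lower), fewer because the filter drops genes near 0 in PEF. With library numbers as a replicate block, 33 were called (10 higher, 23 lower). The labels name no shared origin for libraries of the same number. In their deviations from the mean of their line, same-numbered libraries correlated at -0.041, 0.073 and -0.135 over all tested genes. With 3 libraries per line these values cannot decide whether same-numbered libraries were handled together.

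The median over all genes was -0.067 under DESeq2, -0.045 with upper-quartile scaling, -0.0034 with no filter, 0.012 with 10 reads in every library, and -0.063, -0.072 and -0.088 under limma with TPM + 1, TPM + 0.1 and no filter. With no filter it was -0.56 for the members, -0.52 for integrin beta and -1.27 for laminin beta genes. With 10 reads in every library it was 0.019 for the members, -1.38 for integrin alpha, 0.65 for laminin alpha, 1.21 for laminin beta, -1.74 for laminin gamma and 0.10 for nidogen genes. Under limma in the same order of fits it was -1.43, -2.16 and -0.76 for integrin alpha, 0.46, 0.46 and -0.0096 for laminin beta, and 0.10, 0.12 and -0.73 for nidogen genes. With limma it was -1.70 for laminin gamma (TPM + 0.1) and -0.12 for the members (no filter). With a library left out it ranged over -3.71 to -2.86 for integrin alpha, -2.81 to -2.29 for laminin beta, -2.01 to -0.45 for laminin gamma and 0.17 to 0.41 for adaptor genes. Leaving out each library in turn was chosen after seeing the data for the sums, the bounds and the list genes, and kept the PEF to SEF ratio of summed TPM at 0.0995 to 0.125 for integrin alpha and 0.740 to 0.781 for integrin beta genes. Medians of so few genes move when the filter changes which genes are tested.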

Other observations

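The neighbours of the genes with the largest changes were read from the gene order of the RefSeq surface fish assembly, a comparison chosen after the values were seen. Of the members with full values and an absolute log2 fold change of at least 2, 12 could be placed, with 24 nearest tested genes on either side. Of those, 3 were called in the same direction by at least 2 on the log2 scale and 2 in the other direction. The same direction was that of twist1a, 4 genes from itgb8, and of aif1l and zgc:63972, 1 and 4 genes from lamc3. The other direction was that of sp8a, directly next to itgb8, and crabp2a, directly next to itga10. These 5 make 20.8%, where 23.6% of all tested genes were called by that much in either direction. Next to itga11a, coro2ba had a log2 fold change of -0.98 and mns1 of -1.40. Next to itga10, polr3c had 0.87 and crabp2a 6.37. Next to lama5, adrm1 had -0.30 and mapre1b -0.12.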
